A study of Mus musculus with 4 samples.

Results

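The genes described here are a set of synaptic scaffold genes and of mRNAs reported elsewhere as targets of FMRP, the RNA-binding protein that Fmr1 encodes. They were chosen by name from a list of 38 genes, and 36 of them had at least 1 array feature with that single gene symbol, out of 19083 genes measured. Shank1 and Shank2 had none and were not analysed here. The 36 genes were read by 132 of the 33649 features with 1 gene symbol. The data compare mouse embryonic stem (ES) cells, the pluripotent cells of the early embryo kept in culture, transduced with a lentivirus for a hairpin that targets exon 1 of Fmr1 (shFmr1) with ES cells that received a random hairpin (shCT). Each virus also drives GFP, and the sorted cells of each kind were kept as mixed populations that do not come from 1 clone. Each of 4 Agilent 2-colour arrays held 1 shFmr1 and 1 shCT RNA (0.2 µg, RNA integrity number 9). Cy5 marked the shFmr1 RNA on replicates 1 and 3, and Cy3 marked it on replicates 2 and 4.

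Values are the deposited log ratios, read here as log2 of shFmr1 over shCT and averaged over the features of a gene. Neither the log base nor the direction is stated, and the direction is called likely because Fmr1 came out negative on each array in both dye orientations. No label names separate cultures for the replicates, so the p-values here describe the spread of 4 RNA pairs, some or all of it possibly technical. The limma fit also drew the spread of each gene toward a value shared by all genes. That shared value had 3.92 degrees of freedom, beside 2 from the arrays of the gene. Its p-values and intervals thus rest in large part on the shared spread. The table holds ratios alone. Whether a gene was above background in ES cells could not be read from it, so a ratio near 0 may belong to a gene that is not transcribed in these cells. For the same reason the labelled cell type could not be checked against the levels of its markers. In bulk RNA, fewer cells of a type and less RNA per cell cannot be told apart.

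FMRP binds mRNAs in neurons and represses the translation of many of them, and its loss in humans causes fragile X syndrome. Many of the mRNAs reported as its targets encode proteins of the synapse, where scaffold proteins hold receptors in place on the receiving side, vesicle proteins release transmitter on the sending side, and adhesion proteins join both sides. Translational repression acts on protein output and need not alter the amount of mRNA, which is the quantity measured on these arrays. Most of these genes are used in neurons, and a few, such as Apc, Sod1, Hcfc1 and Dag1, serve most cell types.

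The Fmr1 transcript read -0.86, -1.65, -1.34 and -1.61 on replicates 1 to 4. Fmr1 was thus below 0 on every array, with a mean of -1.37 ± 0.36 (SD, n = 4) and a limma adjusted p of 0.156. The exact two-sided sign-flip permutation test gave the smallest p-value that 4 arrays allow, which is above the threshold.

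None of the 36 genes changed by the test used, limma's moderated test with Benjamini-Hochberg adjustment over all genes at a threshold of 0.05. Over all genes 0 of 19083 passed it (0%). At an unadjusted limma p under 0.05, 0 of the 36 genes passed, beside 719 of the 19083 genes (3.77%). The smallest unadjusted p was 0.108, for Dgkk. Means over the 4 arrays ran from -0.17 for Arc to 0.49 for Nrxn3. Of these means 15 were positive and 21 negative, beside 50.5% negative over all genes. The same share stands beside the sign counts of means in the groups and lists below. The median of the 36 means was -0.018, beside -0.0013 over all genes. Of the 36 means, 34 lay within 0.2 of 0, where 88% of all genes lay, and Bsn and Nrxn3 were the exceptions.

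The 95% confidence interval of the limma fit lay between -0.5 and 0.5, a 1.41-fold difference either way, for 32 of the 36 genes, beside 88.1% of all genes. The exceptions were Nrxn3 (-0.36 to 1.34), Bsn (-0.21 to 0.69), Arc (-0.62 to 0.28) and Dlgap3 (-0.16 to 0.53). For 35 genes the interval lay within 1 of 0, a 2-fold difference, beside 98% of all genes, and Nrxn3 was the exception. The interval of Fmr1, from -1.63 to -1.10, overlapped none of the 36. Nor could it overlap any interval within 1 of 0, which 98% of all genes had. No interval of the 36 genes lay within 0.2 of 0, beside 0% of all genes. The fit draws the spread of each gene toward a shared value, which sets a least width. No interval could be that narrow, so this count says nothing about these genes.

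**Figure D1:**
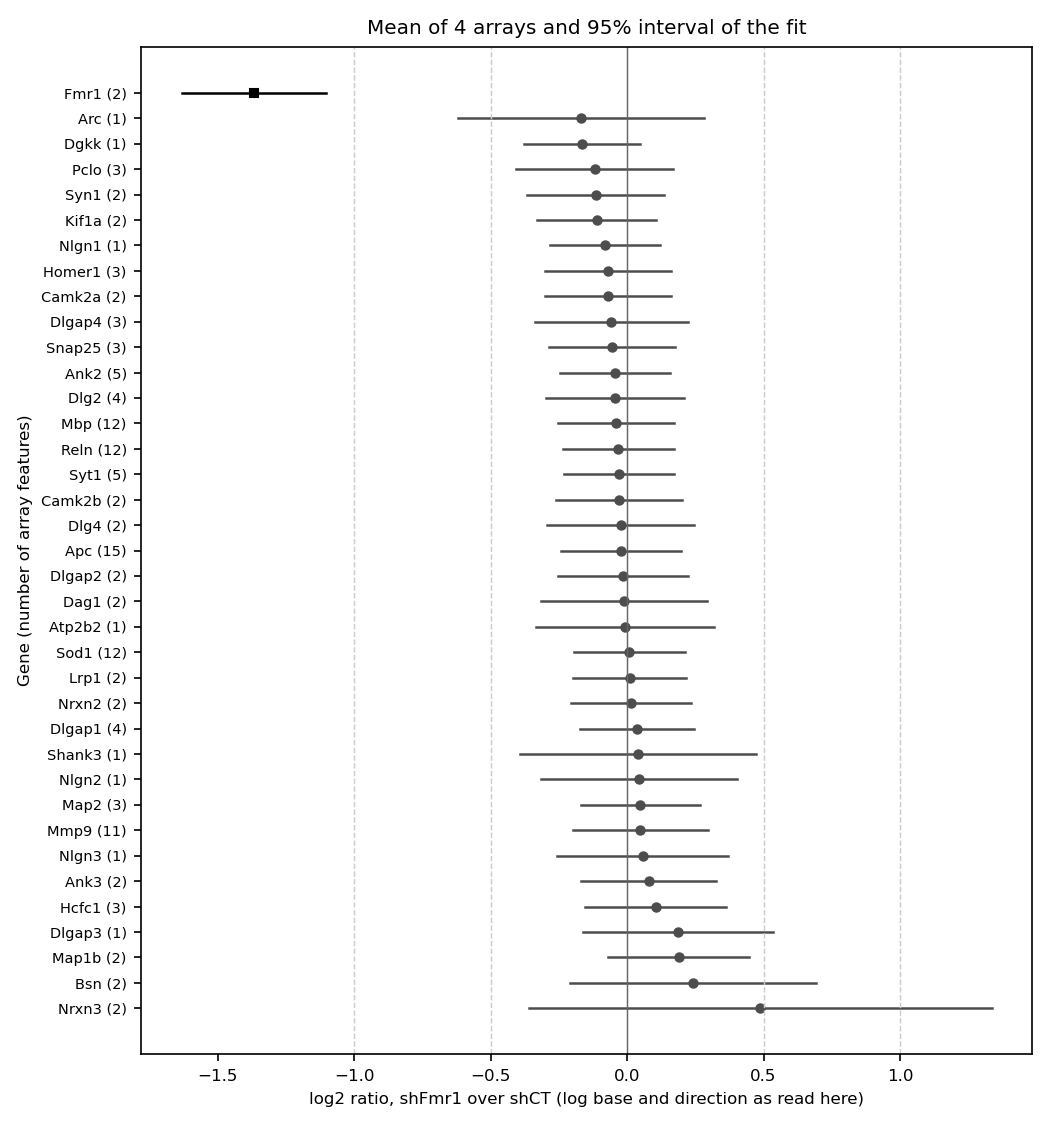
Mean log2 ratio of shFmr1 over shCT (x axis) for Fmr1 (square) and the 36 genes (circles, y axis, with the number of features of each in brackets), with bars for the 95% confidence interval of the limma fit over 4 arrays. Fmr1 stands at -1.37, and every other interval includes 0; the widest belongs to Nrxn3.

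The postsynaptic scaffold genes gave a median of -0.019 over 8 measured genes, 3 positive and 5 negative, and 0 of them had an unadjusted p under 0.05. Dlg4, which encodes PSD-95, the central scaffold of excitatory synapses, read 0.08, 0.16, 0.00 and -0.34 on replicates 1 to 4. The mean was -0.02 ± 0.22 (SD, n = 4), with a 95% confidence interval from -0.29 to 0.25. The arrays thus stood on both sides of 0. The 2 features of Dlg4 differed in mean by 0.02 only, but on replicate 3 they read -0.19 and 0.20, which average to the 0.00 given. Dlg2, the gene of the related scaffold PSD-93, averaged -0.04 ± 0.21 over 4 features.

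The Dlgap genes encode the proteins that link PSD-95 to the Shank scaffolds. Dlgap1 read -0.02, 0.11, 0.08 and -0.02, Dlgap2 0.17, -0.08, -0.17 and 0.02, and their means were 0.04 ± 0.07 and -0.01 ± 0.15. Dlgap1 varied least among the scaffold genes. Dlgap3 read 0.15, -0.02, 0.90 and -0.28 on its 1 feature, a mean of 0.19 ± 0.51 that came mainly from replicate 3 (limma unadjusted p = 0.239, adjusted p = 0.973). Dlgap4 read 0.08, 0.10, -0.46 and 0.04, with a mean of -0.06 ± 0.27, and replicate 3 stood apart from the other arrays in the opposite direction. One of the 3 features of Dlgap4 read -1.56 there while the others read -0.06 and 0.25. Without that feature the gene mean was 0.003.

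Shank3, the outer scaffold that joins the Dlgap layer to Homer and actin, read -0.46, 0.18, 0.57 and -0.14 on 1 feature. Its mean of 0.04 ± 0.44 had a 95% confidence interval from -0.39 to 0.47, and the arrays of each dye orientation disagreed in sign. Homer1, which ties Shank proteins to metabotropic glutamate receptors, averaged -0.07 ± 0.14. Its 3 features gave 0.13 and -0.11 under the accession NM_011982 and -0.23 under NM_152134. A short and a long Homer1 protein are known, and which of the features reads which transcript was not analysed here.

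The postsynaptic signalling genes were Camk2a and Camk2b, subunits of the calcium-dependent kinase that is abundant at synapses, and Arc, an immediate early gene whose product promotes removal of glutamate receptors. All 3 means were negative, with a median of -0.07 and 0 genes at an unadjusted p under 0.05. Camk2a, whose mRNA is carried into dendrites, read 0.06, -0.05, -0.26 and -0.04 on replicates 1 to 4, with a mean of -0.07 ± 0.13 and a 95% confidence interval from -0.30 to 0.16. Camk2b averaged -0.03 ± 0.17. Arc read -0.84, -0.07, 0.29 and -0.05 on 1 feature. Replicate 1 was low and replicate 3 high, although both carried shFmr1 in Cy5, and the mean of -0.17 ± 0.48 had a limma adjusted p of 0.973.

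The synaptic adhesion genes encode the neuroligins of the receiving side and the neurexins of the sending side, which bind each other across the cleft. Of the 5 means 4 were positive, with a median of 0.04 and 0 genes at an unadjusted p under 0.05. Nlgn1, the neuroligin of excitatory synapses, read 0.03, -0.21, 0.06 and -0.19, a mean of -0.08 ± 0.14 (SD, n = 4). Nlgn2, that of inhibitory synapses, read 0.51, 0.08, 0.31 and -0.73, a mean of 0.04 ± 0.54. Nlgn3 read -0.26, -0.05, 0.38 and 0.15, a mean of 0.06 ± 0.28. Each neuroligin was read by 1 feature and had arrays on both sides of 0. Nrxn2 averaged 0.01 ± 0.10 over 2 features, with array values between -0.13 and 0.12.

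Nrxn3 read -0.03, -0.14, -0.04 and 2.17 on replicates 1 to 4. Replicate 4 alone was high, and its 2 features read 2.68 and 1.66 there. The mean was 0.49 ± 1.12 with a limma adjusted p of 0.973. Without replicate 4 the fitted ratio was -0.09 with the dye term kept, which weighs both dye orientations alike, and -0.07 without it. Without replicate 2 the fitted ratio was 1.07 with the dye term kept and 0.70 without it. The fit with the dye term passed limma's test (adjusted p = 0.0340). Replicate 4 was then the only array with shFmr1 in Cy3 and added nothing to the estimated spread, and without a dye term the adjusted p exceeded the threshold.

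The presynaptic genes encode Bassoon (Bsn) and Piccolo (Pclo), large scaffolds of the release site, the membrane fusion protein Snap25, the vesicle protein synapsin (Syn1) and the calcium sensor of release (Syt1). Of the 5 means 4 were negative, with a median of -0.05 and 0 genes at an unadjusted p under 0.05. Bsn read 0.15, -0.22, 0.12 and 0.91 on replicates 1 to 4. It was high in replicate 4, as was Nrxn3, and its 2 features read 0.67 and 1.16 there. The mean of 0.24 ± 0.48 had a limma adjusted p of 0.973. Without replicate 4 the fitted ratio of Bsn was -0.04 with the dye term kept and 0.02 without it. Pclo, the closest relative of Bsn, read 0.08, 0.04, -0.10 and -0.50. Replicate 4 was thus its lowest array, and the mean was -0.12 ± 0.27.

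Syn1 read 0.13, -0.31, -0.21 and -0.07 on replicates 1 to 4, a mean of -0.12 ± 0.19 (limma unadjusted p = 0.300, adjusted p = 0.973). Both of its features averaged below 0, at -0.19 and -0.04. Snap25 averaged -0.05 ± 0.13 over 3 features and Syt1 -0.03 ± 0.06 over 5, with the values of Syt1 between -0.11 and 0.03. Syt1 was among the genes that varied least between arrays.

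Many neuronal genes are kept silent outside neurons by the repressor REST, which binds the RE1 element. Promoters of the set were searched on both strands for TTCAGCACC, the left part of that element, a choice made with the promoters seen. RefSeq promoter windows of 300 bases (GRCm38.p6, 250 before to 50 after the start site) were given for 26 of the 38 listed genes, as 43 windows. The letters occurred in 2 of the 43 windows, those of Syn1 and Nlgn1, and in 122 of all 32851 windows (0.371%). Both are shown 5′ to 3′ on the gene's strand, with the match in capitals; it starts 232 bases before the start site in Syn1 (chrX:20920869-20921168, minus strand) and 153 bases before it in Nlgn1 (chr3:26153937-26154236, minus strand). A match of letters is a description and not a measured binding site. Because the letters were chosen with the promoters seen, the counts above give no measure of enrichment.
Syn1: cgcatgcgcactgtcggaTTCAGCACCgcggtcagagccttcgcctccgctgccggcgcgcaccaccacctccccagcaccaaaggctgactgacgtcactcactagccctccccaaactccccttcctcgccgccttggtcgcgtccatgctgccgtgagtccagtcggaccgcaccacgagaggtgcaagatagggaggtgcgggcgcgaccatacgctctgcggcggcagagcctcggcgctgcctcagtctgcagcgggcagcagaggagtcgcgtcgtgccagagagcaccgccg
Nlgn1: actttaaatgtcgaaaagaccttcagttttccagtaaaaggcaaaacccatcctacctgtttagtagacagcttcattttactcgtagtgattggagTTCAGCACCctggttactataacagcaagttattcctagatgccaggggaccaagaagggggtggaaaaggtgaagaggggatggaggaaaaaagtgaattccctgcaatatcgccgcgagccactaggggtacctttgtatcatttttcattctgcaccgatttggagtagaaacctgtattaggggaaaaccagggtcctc
The median GC content of the 43 windows was 60.7%, beside 52.7% over all windows, and the median number of CG pairs 16 beside 7. Beside these letters stand the ratios of Syn1 and Nlgn1 given above, -0.12 ± 0.19 and -0.08 ± 0.14, both with 95% confidence intervals that include 0. A link between the letters and the ratios was not tested.

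The cytoskeletal and transport genes had a median of 0.01 over 6 genes, 3 positive and 3 negative, and 0 with an unadjusted p under 0.05. Map1b encodes a microtubule-associated protein of growing axons and is one of the longest known FMRP targets. It read 0.48, 0.07, 0.03 and 0.17 on replicates 1 to 4, above 0 on every array as the mean of its 2 features. The mean was 0.19 ± 0.20 (SD, n = 4) with a 95% confidence interval from -0.07 to 0.45 (limma adjusted p = 0.973), and replicate 1 was the highest array. Its 2 features differed, with a mean of 0.35 under BC045135 and 0.03 under NM_008634. The former read 1.15, 0.16, 0.20 and -0.11 on replicates 1 to 4, and the latter -0.19, -0.02, -0.13 and 0.45. Neither feature was thus above 0 on every array.

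Map2, the microtubule-associated protein of dendrites, averaged 0.05 ± 0.19 over 3 features. Kif1a, the motor that carries synaptic vesicle precursors, read 0.00, -0.27, -0.11 and -0.06, a mean of -0.11 ± 0.12 (limma unadjusted p = 0.255, adjusted p = 0.973). As the mean of 2 features Kif1a was at or below 0 on every array, but neither feature was. They read 0.43 and -0.43 on replicate 1, and -0.47 and 0.34 on replicate 4. Ank2 and Ank3 encode ankyrins, which tie membrane channels to the spectrin skeleton. Ank2 averaged -0.04 ± 0.03 over 5 features and was slightly negative on all 4 arrays, while its features ran from -0.24 to 0.23. Ank3 read 0.27, 0.04, -0.12 and 0.12, a mean of 0.08 ± 0.16. Apc, a scaffold of the Wnt pathway that also binds microtubules, averaged -0.02 ± 0.13 over 15 features. Map1b, Kif1a and Ank2, each averaged over several features, kept 1 sign over the 4 arrays, 3 of 36 genes, beside 11.3% of all genes.

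The genes of receptors and matrix were dystroglycan (Dag1), the endocytic receptor Lrp1, the secreted guidance protein reelin (Reln) and the matrix protease Mmp9. Their means were -0.01 ± 0.30, 0.01 ± 0.07, -0.03 ± 0.06 and 0.05 ± 0.16, with 0 of 4 at an unadjusted p under 0.05. By gene mean these were the flattest of the groups, since all 4 means lay between -0.03 and 0.05. Each averages features that differed in sign, 2 for Dag1, 2 for Lrp1, 12 for Reln and 11 for Mmp9. The features of Lrp1 averaged -0.16 and 0.18 and read -0.57 and 0.61 on replicate 1. Dag1 still varied between arrays, from -0.37 on replicate 4 to 0.34 on replicate 3.

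The other reported targets had a median of -0.009 over 5 genes, 2 positive and 3 negative, and 0 at an unadjusted p under 0.05. Sod1, the cytosolic superoxide dismutase, read -0.01, -0.01, 0.09 and -0.04 on replicates 1 to 4, a mean of 0.01 ± 0.06 with a 95% confidence interval from -0.20 to 0.21. Dgkk, a diacylglycerol kinase described as a main FMRP target in neurons, read -0.33, 0.13, -0.52 and 0.07 on 1 feature. It was low on both arrays with shFmr1 in Cy5 and slightly above 0 on both with shFmr1 in Cy3. The mean was -0.16 ± 0.31 (limma unadjusted p = 0.108, adjusted p = 0.973). Hcfc1, a chromatin-bound coregulator of the cell cycle, read -0.04, 0.19, 0.34 and -0.07, a mean of 0.10 ± 0.19. Atp2b2, a plasma membrane calcium pump, averaged -0.01 ± 0.31, with array values from -0.45 to 0.28.

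Mbp, the myelin basic protein gene of oligodendrocytes, read 0.07, -0.06, -0.13 and -0.04, a mean of -0.04 ± 0.08 over 12 features. One of these features read -2.77 on replicate 3, where the other 11 lay between -0.58 and 0.82. The same feature read between -0.21 and 0.17 on the other arrays. Without it the mean of Mbp was 0.02 ± 0.08. Mbp was the only gene of the set whose features differed in sign and by more than 0.5 in mean.

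**Figure D2:**
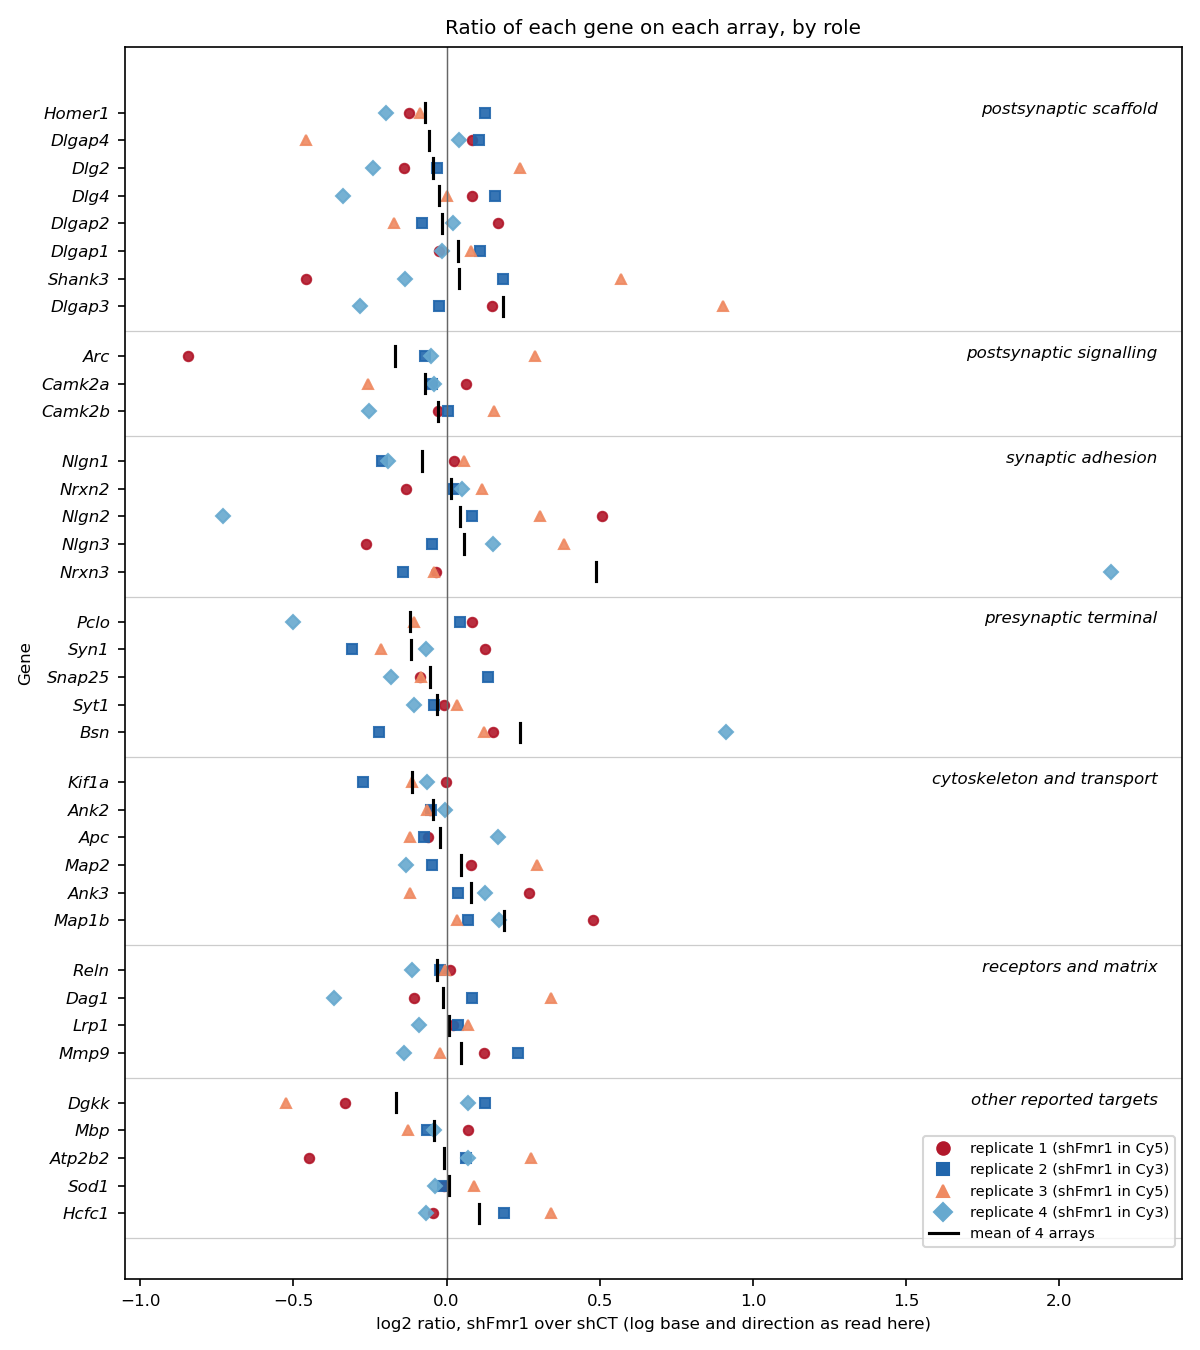
Log2 ratio of shFmr1 over shCT (x axis) of each gene (y axis, grouped by role) on each of the 4 arrays, with shape and colour for the array and a black bar for the mean. The points of a gene lie around 0 on both sides for most genes; Nrxn3 at 2.17 and Bsn at 0.91 on replicate 4, Dlgap3 at 0.90 on replicate 3 and Arc at -0.84 on replicate 1 stand farthest out.

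The genes were read by different numbers of features. The 8 genes read by 1 feature (Arc, Dgkk, Shank3, Dlgap3, Atp2b2 and the neuroligins) had a median SD over the arrays of 0.377, with a range from 0.141 for Nlgn1 to 0.542. The 23 genes with 2 to 9 features had a median SD of 0.169 and the widest range, from 0.0258 to 1.12 for Nrxn3. The 5 genes with 10 or more features, Apc, Reln, Mmp9, Sod1 and Mbp, had a median SD of 0.0816 and a range from 0.0560 to 0.163. These ranges overlap, and the differences between the classes were not tested. Median half-widths of the 95% intervals were 0.338, 0.237 and 0.213 for these classes in turn. The narrowest interval belonged to Nlgn1 with its 1 feature (half-width 0.2015), nearly equalled by Ank2 with 5 (0.2018). Both lay near the least width that the fit allows. Features that share 1 accession show the scatter within an array. For the 11 features of Mmp9 the SD within an array lay between 0.135 and 0.320, for the 11 of Sod1 under BC057074 between 0.140 and 0.264, and for the 10 of Reln under NM_011261 between 0.229 and 0.295. For the 13 of Apc under NM_007462 it lay between 0.215 and 0.333. For the 11 of Mbp under NM_010777 it lay between 0.185 and 0.893, with the highest value on replicate 3, where the feature at -2.77 lies. Whether such features are repeats of 1 probe was not analysed here.

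Tested feature by feature, 1 of the 132 features had an unadjusted limma p under 0.05, beside 3.68% of all features. It was 1 of the 11 features of Mmp9, which read 0.25, 0.31, 0.32 and 0.26 on replicates 1 to 4 (mean 0.28, limma adjusted p = 0.984). The other 10 features of Mmp9 averaged between -0.11 and 0.14. By Dixon's criterion for 4 values, 1 array lay apart for 2 of the 36 genes, Nrxn3 and Dlgap4, beside 6.45% of all genes. Of the 28 genes with several features, 18 had features with means on both sides of 0, and the share over all genes was not counted.

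**Figure D3:**
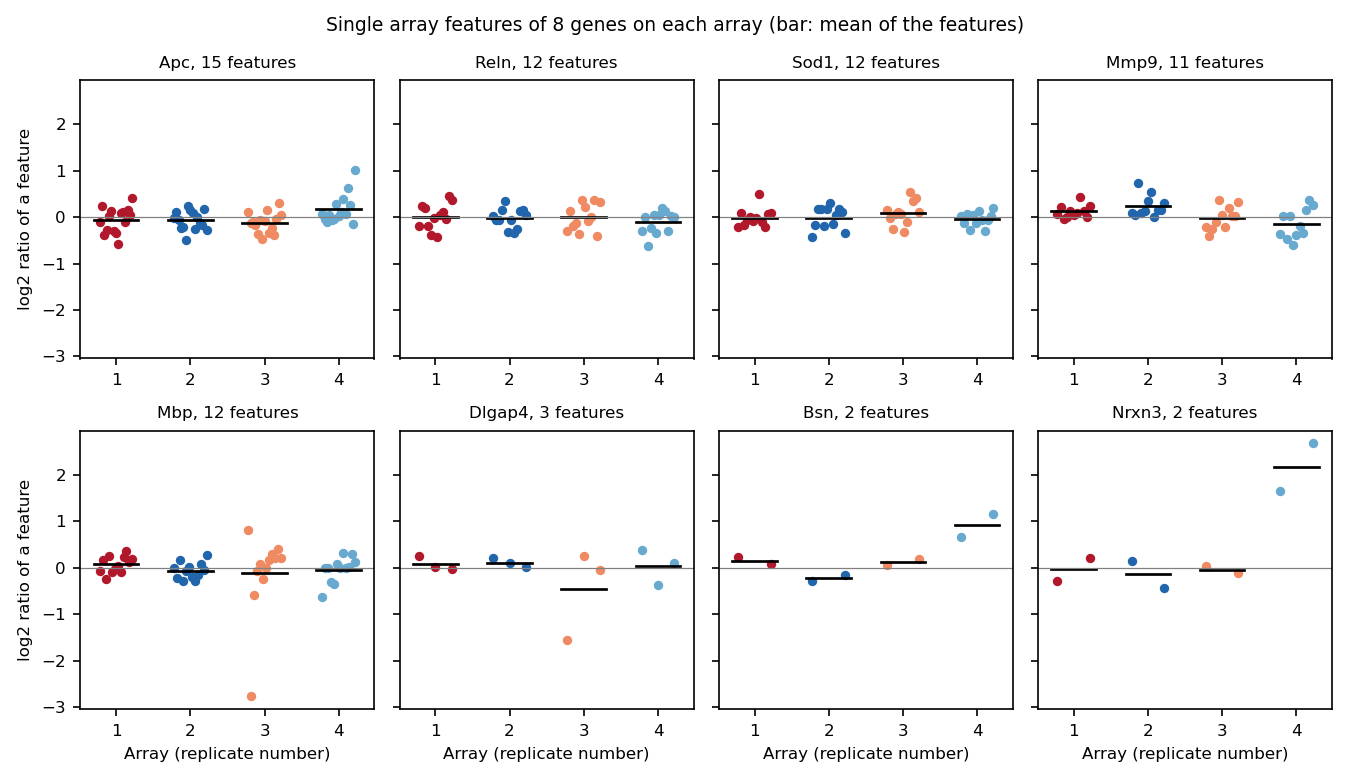
Log2 ratio of each single feature (y axis) on replicates 1 to 4 (x axis) for 8 genes, with a bar for the mean of the features of the gene. Features of Apc, Reln, Sod1 and Mmp9 scatter around 0, single features of Mbp (-2.77) and Dlgap4 (-1.56) fall far below the others on replicate 3, and both features of Nrxn3 and of Bsn are high on replicate 4.

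For the dye coefficient of the limma fit, 2 of the 36 genes had an unadjusted p under 0.05, beside 6.49% of all genes, and 0 after adjustment. They were Dgkk, with means of -0.43 with shFmr1 in Cy5 and 0.10 with shFmr1 in Cy3 (limma unadjusted p = 0.0238), and Nlgn2, with means of 0.41 and -0.32 (limma unadjusted p = 0.0479). Their part in the ratios of these genes was not tested beyond the dye term. Medians of the 36 genes on replicates 1 to 4 were -0.005, -0.002, 0.03 and -0.06, beside -0.001, -0.003, 0.01 and -0.01 for all genes. Replicate 4 had 25 negative and 11 positive genes of the set, and the share over all genes was not counted. Its scatter over the 36 genes (SD 0.450) was the widest only with Nrxn3 at 2.17 included. Replicate 3 came next (SD 0.271), and replicate 2 had the narrowest scatter (SD 0.127). Over all 45214 features replicate 4 was the widest (SD 0.414) and replicate 2 the narrowest (SD 0.319). The value of Nrxn3 also enters the correlations that follow, which were not computed without it. Across the 36 genes, which are not independent replicates, values of arrays with the same orientation correlated at -0.17 and -0.33 and those of opposite orientation between -0.17 and 0.11. Across all 19083 genes the values were 0.063 and 0.044 for the same orientation and between -0.053 and -0.023 for the opposite one. Each pair of arrays shares the features and, where the orientation is the same, the dye.

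Further genes of the synapse and further reported targets were counted in the same fit. Of 26 further reported FMRP targets 12 had positive means (median -0.018), and 1 had an unadjusted limma p under 0.05 toward higher values, beside 1.71% of all genes. That gene was Ntrk3, the receptor of neurotrophin-3, which read 0.44, -0.07, 0.46 and 0.01 (mean 0.21 ± 0.28, limma adjusted p = 0.973). It was high on the arrays with shFmr1 in Cy5, and its dye coefficient had an unadjusted p of 0.0280. Next in that list was the phosphodiesterase gene Pde2a at 0.18 ± 0.13. Of 26 further postsynaptic genes 13 were positive (median -0.003) and of 28 further presynaptic genes 14 (median 0.0007), with 0 at an unadjusted p under 0.05 in either list. The smallest p there belonged to the cortical actin regulator Cttn (0.26 ± 0.22) and the leucine-rich adhesion gene Lrrtm3 (0.15 ± 0.30), and to the complexin gene Cplx1 (-0.31 ± 0.53) and the liprin gene Ppfia3 (-0.18 ± 0.18).

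Markers of neurons, 15 genes, had a median of 0.008, with 1 gene at an unadjusted p under 0.05 toward lower values, beside 2.05% of all genes. It was Stmn2, a microtubule regulator of growing neurites, at -0.27 ± 0.11 and negative on all 4 arrays (limma adjusted p = 0.973). The neurofilament-type gene Ina averaged 0.22 ± 0.30. The 8 neural progenitor markers had a median of 0.05, with Nes at -0.46 ± 0.49 and Pax6 at 0.19 ± 0.14, and the 13 astrocyte and oligodendrocyte markers a median of 0.001, with Sox10 at 0.18 ± 0.13 and Slc1a3 at -0.13 ± 0.18. In neither list did a gene reach an unadjusted p under 0.05.

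Lists of primitive endoderm and embryonic fibroblast markers had medians farther from 0 than that of the 36 genes, a difference that was not tested. The 20 primitive endoderm markers had a median of -0.25, with 16 negative, beside 50.5% of all genes. Of them 8 had an unadjusted limma p under 0.05, all lower, beside 2.05% of all genes. Srgn (-1.60 ± 1.60) and Cubn (-1.01 ± 0.96) led them. Srgn averaged -2.93 with shFmr1 in Cy5 and -0.27 with shFmr1 in Cy3 (unadjusted p of the limma dye coefficient 0.00034), and Cubn -1.70 and -0.33 (0.0184). The dye coefficient had an unadjusted p under 0.05 for 6 of the 20 markers, beside 6.49% of all genes. List medians of these markers on replicates 1 to 4 were -0.51, -0.01, -0.23 and -0.08. The 18 embryonic fibroblast markers had a median of 0.13, with 2 at an unadjusted p under 0.05, both higher, beside 1.71% of all genes, namely Col5a1 (0.32 ± 0.23) and Postn (0.22 ± 0.13), and array medians of 0.26, 0.21, 0.02 and -0.15. The 17 pluripotency markers had a median of -0.008, with Lin28a at 0.26 ± 0.11 and Nanog at 0.33 ± 0.52 at an unadjusted p under 0.05, both higher, beside the same 1.71%. Nanog averaged 0.72 with shFmr1 in Cy5 and -0.06 with shFmr1 in Cy3 (unadjusted p of the limma dye coefficient 0.0177). None of these genes passed the adjusted threshold of limma's test. The part of such cells in the ratios of the synaptic genes was not tested.

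**Figure D4:**
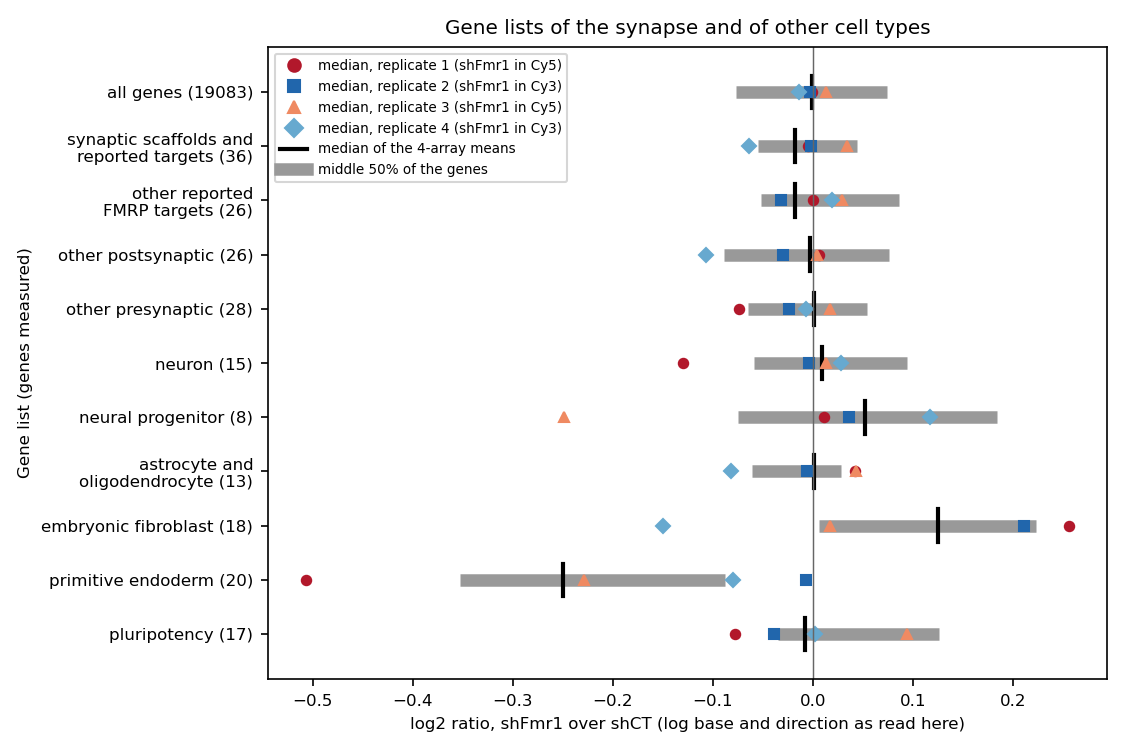
Log2 ratio of shFmr1 over shCT (x axis) for all genes, the 36 genes described here and 9 other gene lists (y axis, with the number of genes measured), with a black bar for the median of the 4-array means, a grey bar for the middle 50% of the genes and coloured points for the list median on each array. The synaptic lists and the reported targets lie near 0, the primitive endoderm markers at -0.25 and the embryonic fibroblast markers at 0.13.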

How the data were processed

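Per the labels, the samples are 4 Agilent 2-colour arrays, each with 1 shFmr1 and 1 shCT RNA. The authors deposited 1 log ratio per feature, taken here as log2, with a mean of 0 on each array; its software, normalization, log base and direction are not stated in the labels or the table. Read as natural logs, all values would grow in proportion. Features were named from a 2016 platform annotation, and 33649 of 45214 had 1 symbol. All 36 measured genes matched a RefSeq gene identifier. Features were averaged per gene and array, and all 19083 genes were fitted in limma 3.58.1 (R 4.3.3; lmFit, then eBayes) with shFmr1 and dye coefficients and Benjamini-Hochberg adjustment. The code was tested on simulated data. Other fits used no dye term, quantile normalization, scaling, medians over features, single features, a robust variance model and each array left out. No dim feature could be filtered, since no intensities were analysed here. The number of arrays limits the precision.

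The genes, lists and tests were chosen with earlier results of these data known, so no list was tested. Every measured gene is named. Array values are given for the 6 smallest p-values in each direction, for genes with an unadjusted p under 0.05 for the dye, for discordant features and for the Dlgap, Nlgn and Shank families, Map1b, Arc, Camk2a, Dlg4, Sod1 and Dgkk, and 2 genes with the smallest p in each other list are named, with the lists' results in the closing paragraphs of the report.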

Additional observations from a re-analysis of the deposited data

Results flagged for a closer look

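Dixon's criterion for 4 values set 1 array apart in 2 of 65 results (55 genes, 10 list medians), where chance gives about 1 in 20, or 3.25. Over all genes 6.45% met it. Nrxn3 read 2.17 on replicate 4 and between -0.14 and -0.03 on the other arrays, and both of its features were high there. Dlgap4 read -0.46 on replicate 3 and between 0.04 and 0.10 on the other arrays, where 1 of its 3 features read -1.56. Whether these values belong to the RNA or to the array was not tested.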

How the results depend on the processing

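Removing the farthest feature of Mbp and Dlgap4 was chosen after seeing the data. No separate paired analysis was added, because each array holds both RNAs of its replicate and the fit to their ratio is itself paired. With quantile normalization 2 genes passed over all genes, Fmr1 (-1.63, limma adjusted p = 0.0227) and the keratin gene Krt19, and 0 of the 36. Tested by single features, 1 feature of the 36 genes had an unadjusted p under 0.05. The other full-data fits gave 0 for both counts. The signs of Mbp (0.0375) and Dlgap4 (0.0400) reversed with the median over features, and also without their farthest feature (0.0207 and 0.0026), where the construction itself takes out that feature; for the medians the cause was not tested. Leaving out each array in turn, with and without the dye term, gave 0 to 87 genes past the threshold, 0 to 2 of the 36 at an unadjusted p under 0.05, a median of the 36 from -0.0424 to 0.00812 and Fmr1 from -1.54 to -1.25. With the dye term kept, the counts over all genes were 25, 87, 10 and 0 without replicates 1 to 4; the genes of the set at an unadjusted p under 0.05 were Dlgap3 without replicate 1 (beside 5.81% of all genes), Bsn and Nrxn3 without replicate 2 (5.55%), Arc and Map1b without replicate 3 (4.78%), and, without a dye term, Nlgn2 without replicate 4 (3.51%). Without a dye term the count over all genes was 0 whichever array was left out. With the dye term and 3 arrays, 1 array was alone in its dye orientation and added nothing to the estimated spread. In the 8 leave-one-out fits, for which no share over all genes was counted, 10 of the 36 genes kept their sign and 26 did not. The ranges of the latter were -0.148 to 0.0998 for Dlg4, -0.138 to 0.0517 for Dlg2, -0.218 to 0.297 for Shank3, -0.0992 to 0.0702 for Dlgap2, -0.0531 to 0.374 for Dlgap3, -0.193 to 0.0775 for Dlgap4, -0.151 to 0.0104 for Homer1, -0.150 to 0.0106 for Camk2a, -0.0936 to 0.0451 for Camk2b, -0.452 to 0.114 for Arc, -0.160 to 0.300 for Nlgn2, -0.104 to 0.218 for Nlgn3, -0.0478 to 0.0759 for Nrxn2, -0.0896 to 1.065 for Nrxn3, -0.0426 to 0.524 for Bsn, -0.255 to 0.016 for Pclo, -0.133 to 0.0247 for Snap25, -0.0331 to 0.109 for Map2, -0.0189 to 0.176 for Ank3, -0.0844 to 0.0381 for Apc, -0.129 to 0.107 for Dag1, -0.0229 to 0.0428 for Lrp1, -0.0447 to 0.142 for Mmp9, -0.0198 to 0.0332 for Sod1, -0.0886 to 0.00919 for Mbp and -0.190 to 0.172 for Atp2b2. With 4 arrays such sign changes concern means within the error of the fit, and no depth or signal over background could be read from the ratios.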
